A study of Rattus norvegicus with 19 samples.

Results

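The genes described here are those through which the adrenal stress hormones act and by which their action is commonly read: the glucocorticoid receptor *Nr3c1*, the mineralocorticoid receptor *Nr3c2*, and 8 target genes, *Fkbp5*, *Sgk1*, *Tsc22d3*, *Zbtb16*, *Pdk4*, *Errfi1*, *Cdkn1a* and *Plin4*. They were chosen by symbol. Of the 10 genes, 9 were found by symbol among the 32623 genes of the count tables, and all 9 passed the filter on low counts and were among the 15440 genes tested. *Nr3c1* was not analysed here.

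Glucocorticoids released by the adrenal gland bind both receptors, which are transcription factors held in the cytoplasm by chaperones until hormone arrives. The mineralocorticoid receptor binds corticosterone, the main glucocorticoid of the rat, at low resting levels, whereas the glucocorticoid receptor is occupied mainly at the daily peak and under stress, and the hippocampus is known for expressing both. Bound receptors move to the nucleus and activate target genes, many of which return to baseline as hormone falls, so the RNA level of the targets is used as a reading of recent hormone action.

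The libraries came from the hippocampus of adult male Sprague Dawley rats, an outbred stock, with 1 library per animal. The littermates fell into 4 groups: wild-type (wt, n = 6), Del/+ with a heterozygous deletion of the segment of chromosome 1 homologous to human 16p11.2 (n = 4), Dup/+ with a heterozygous duplication of it (n = 5), and Del/Dup with the deletion on one chromosome and the duplication on the other (n = 4). Both rearrangements were made by CRISPR/Cas9 editing and are inherited through the germ line, and the labels name no treatment. The exact age at dissection and the hour of the day, on which the level of corticosterone depends, were not given in the sources used here.

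The labels were checked on 2 genes of the rearranged segment. *Mapk3*, in CPM (counts scaled to a common library size), stood at 88.5 to 98.4 in wt and 81.2 to 98.5 in Del/Dup, whereas Del/+ held 41.0 to 60.9 and Dup/+ 129 to 154. *Kctd13* stood likewise at 36.1 to 50.7 CPM in Del/+, under all wt libraries, and at 109.9 to 123 in Dup/+, over all of them. One library, wt replicate 5, has wt in one label field and Dup/+ in another, and was counted as wt. Libraries held 16191192 to 38760645 reads in genes. Multi-mapped reads, which were not counted, made up 40.1% to 47.6% in wt and 45.1% to 50.5% in Dup/+, but 57.8% to 70.7% in Del/Dup and over 55% in the Del/+ libraries other than replicate 4, which stood at 41.6%. Since all Del/Dup libraries were high and all wt libraries low, this share and the Del/Dup genotype cannot be told apart. The 5 detected markers of hippocampal neurons summed to 739 to 1221 CPM over the 19 libraries, and the sixth, *Fibcd1*, was at 0 throughout. The summed choroid plexus markers reached 35.0 CPM in wt, 408 in Dup/+, 1211 in Del/Dup and 1261 in Del/+. Del/Dup replicate 2 stood apart, with the lowest level of *Prox1*, a granule neuron marker, at 76.8 CPM against a median of 151 over all libraries.

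The first question was whether the levels of these genes differed between genotypes. None of the 9 genes reached an adjusted p under 0.05 in any comparison by the quasi-likelihood test of edgeR, adjusted over all genes tested. The smallest adjusted p-values were those of *Fkbp5*, lower in Del/+ than in wt or Dup/+, and of *Cdkn1a*, higher in Del/+ and Del/Dup than in wt. A second tool, DESeq2, called *Fkbp5* in both of its comparisons and *Cdkn1a* in Del/Dup. *Tsc22d3*, *Zbtb16*, *Errfi1* and *Plin4* had an unadjusted p above 0.05 in every comparison.

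Against wt, Del/+ had 0 of 9 genes called by edgeR, 2 at an unadjusted p under 0.05 and 1 called by DESeq2. Over all genes the shares were 0.771%, 18.4% and 4.15%, in the same order, where those of DESeq2 are over the 13939 to 15435 genes to which it gave an adjusted p. Dup/+ had 0 called, 2 at an unadjusted p under 0.05 and 0 by DESeq2, beside 0.272%, 8.94% and 0.518% of all genes. Del/Dup had 0 called, 3 at an unadjusted p under 0.05 and 1 by DESeq2, beside 0.0907%, 16.2% and 1.19% of all genes. In Del/+ against Dup/+ the counts were 0, 3 and 1, beside 0.784%, 13.5% and 1.84%, and in the test for any difference among the 4 groups they were 0, 5 and 2, beside 0.823%, 18.9% and 4.79%. Against wt, the 9 genes had a median log2 fold change of -0.04 (Del/+), 0.02 (Dup/+) and 0.07 (Del/Dup), and in Del/+ against Dup/+ of -0.14, with the medians over all genes tested within 0.01 of 0.

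**Figure D1:**
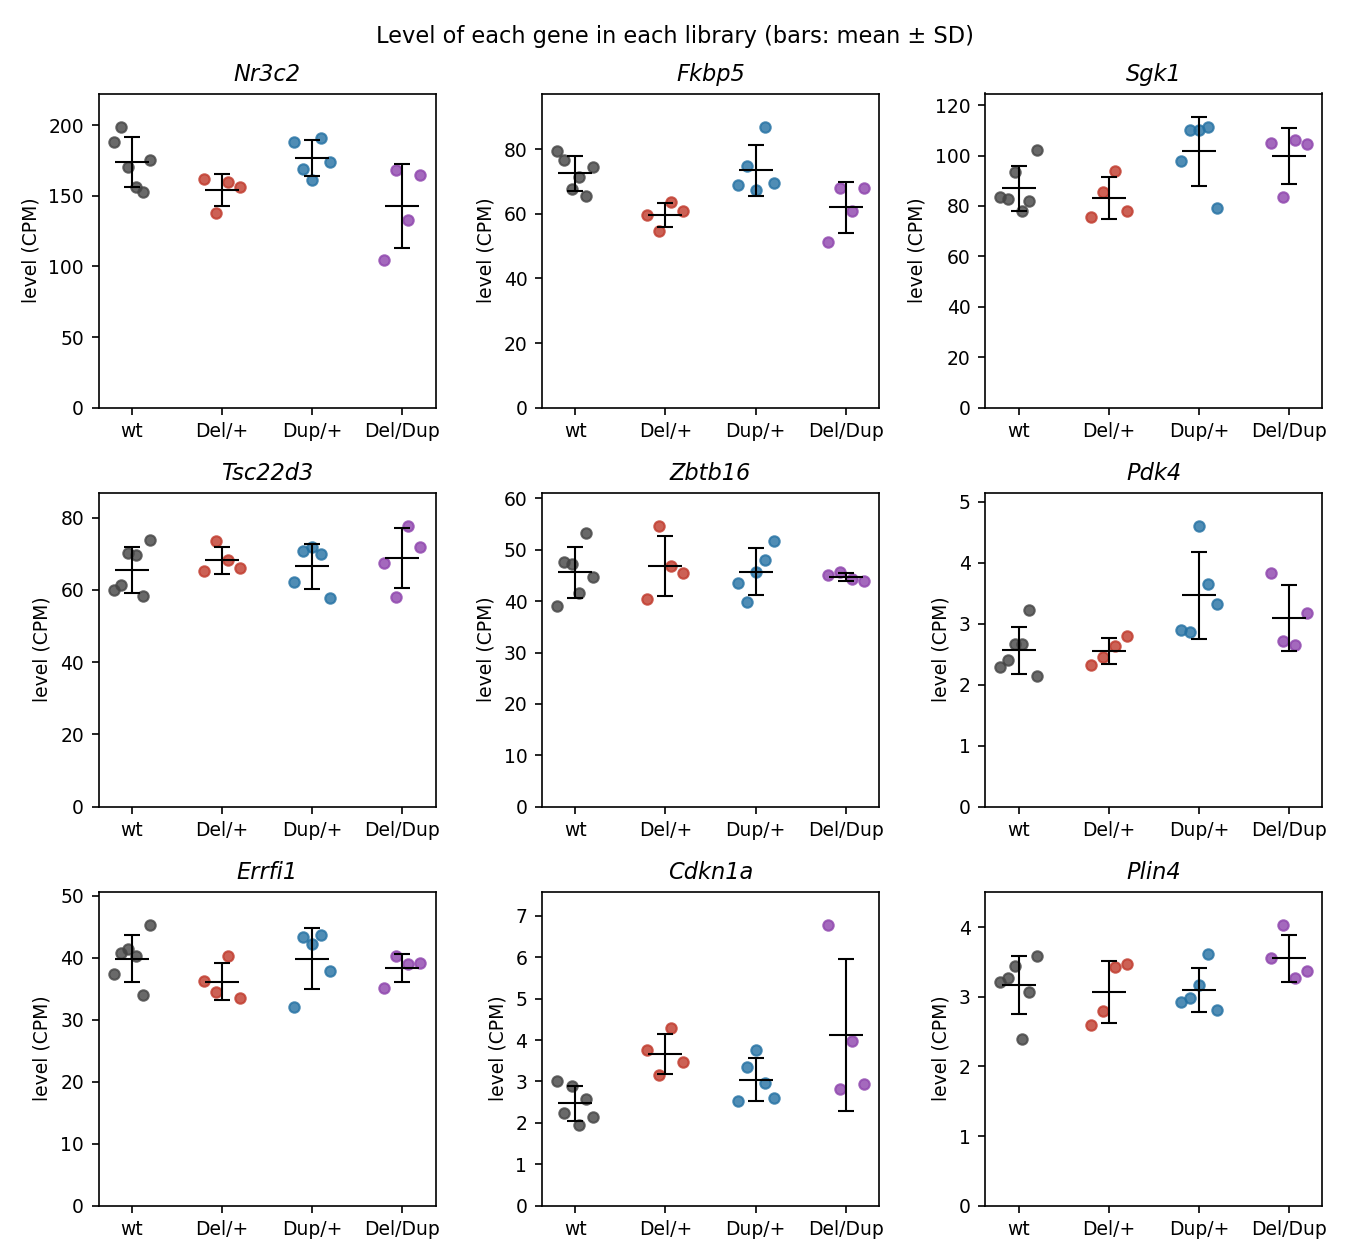
Level of each of the 9 genes in CPM (linear axis from 0) in each of the 19 libraries, by group, with bars for the mean and SD over the libraries of a group (4 to 6). All Del/+ libraries lie below all wt libraries for *Fkbp5* and above them for *Cdkn1a*, and Del/Dup replicate 2 is the lowest point for *Nr3c2* and *Fkbp5* and the highest for *Cdkn1a*.

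*Nr3c2* (ENSRNOG00000034007), the mineralocorticoid receptor, was read at 2242 to 7071 counts per library. In wt it stood at 153, 173 and 199 CPM (lowest, median and highest). The Del/+ libraries held 162, 138, 160 and 156 CPM, the Dup/+ libraries 188, 169, 161, 191 and 174, and the Del/Dup libraries 105, 168, 133 and 164. Group means ran from Dup/+ (177 ± 12.7 CPM, SD, n = 5) over wt (174 ± 17.7, n = 6) and Del/+ (154 ± 11.1, n = 4) to Del/Dup (143 ± 29.7, n = 4), and the ranges of all neighbours in this order overlapped. The largest difference from wt was that of Del/Dup, -0.28 ± 0.10 on the log2 scale (SE, edgeR adjusted p = 0.210), and without Del/Dup replicate 2 it was -0.16 (adjusted p = 0.633).

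*Fkbp5* (ENSRNOG00000022523) encodes a co-chaperone that lowers the affinity of the glucocorticoid receptor for hormone and is itself induced by the receptor, which closes a short feedback loop. Its level was 65.3, 72.9 and 79.5 CPM in wt (lowest, median and highest). It was 59.7, 54.7, 63.5 and 60.9 CPM in the Del/+ libraries, so the highest of these lay under the lowest of wt. The Dup/+ libraries held 69.0, 74.7, 67.3, 86.8 and 69.4 CPM and the Del/Dup libraries 51.2, 67.8, 60.8 and 68.0, both groups overlapping with wt. The log2 fold change of Del/+ against wt was -0.28 ± 0.08 (SE), a fold of 0.824, with an edgeR adjusted p = 0.0916. DESeq2 gave -0.28 with an adjusted p = 0.0332, and edgeR without Del/Dup replicate 2, which is in neither group but shares the fit, gave -0.28 with an adjusted p = 0.0464. Del/+ also lay wholly below Dup/+, by -0.30 ± 0.08 (adjusted p = 0.115 in edgeR, 0.0423 in DESeq2), and Del/Dup differed from wt by -0.23 ± 0.08 (adjusted p = 0.206) or by -0.14 without Del/Dup replicate 2. Of the hippocampal neuron markers, 2 of 5 had an unadjusted p under 0.05 in Del/+ against wt, both lower, beside 18.4% of all genes in either direction. *Prox1* stood at 103 to 135 CPM in Del/+ and at 136 to 195 in wt, with no overlap, as in 4.94% of all genes (log2 fold change -0.35 ± 0.16, edgeR adjusted p = 0.257). *Neurod2* had a log2 fold change of -0.46 ± 0.15 (adjusted p = 0.124). The other 3 detected markers had log2 fold changes of -0.16 to -0.06 with overlapping ranges, and the sum of the 5 was 817 to 1034 CPM in Del/+ and 919 to 1221 in wt. With that sum as a covariate *Fkbp5* was at -0.20 in Del/+ against wt (adjusted p = 0.142). The summed oligodendrocyte markers stood at 5882 to 8819 CPM in Del/+ (median 6864) and 4995 to 6468 in wt (median 5545). The summed astrocyte markers had medians of 2981 CPM in Del/+ and 3205 in wt, with overlapping ranges. Neither of these sums was used as a covariate between groups.

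Del/+ and wt ranges did not overlap for *Fkbp5* and *Cdkn1a*, 2 of the 9 genes, where 4.94% of all genes tested did not overlap. Between Del/+ and Dup/+ they did not overlap for 2 of 9, *Fkbp5* and *Pdk4*, beside 5.3% of all genes. The count was 0 of 9 for Dup/+ against wt and for Del/Dup against wt, beside 1.17% and 2.56%. The one Del/+ library with a multi-mapped share as in wt, replicate 4, had 60.9 CPM of *Fkbp5*, below all wt libraries, and 3.47 CPM of *Cdkn1a*, above all of them. With a share over 55% as a term in the fit, the log2 fold changes of Del/+ against wt were -0.25 for *Fkbp5* (adjusted p = 0.449) and 0.47 for *Cdkn1a* (adjusted p = 0.560).

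*Sgk1* (ENSRNOG00000011815), a kinase that regulates ion channels and transporters and responds to both receptors, was at 78.1, 83.2 and 102 CPM in wt (lowest, median and highest). The Dup/+ libraries held 97.8, 110.3, 110.1, 111 and 79.4 CPM, and the Del/Dup libraries 105, 83.4, 106 and 105. All but 1 library of each of these 2 groups, and of wt only replicate 6, were at 97.8 CPM or more. The Del/+ libraries held 75.5, 85.6, 94.0 and 78.1 CPM. The log2 fold change against wt was 0.23 ± 0.09 in Dup/+ (SE, adjusted p = 0.480) and 0.20 ± 0.10 in Del/Dup (adjusted p = 0.308, and 0.08 to 0.28 over the alternatives, lowest with a multi-mapped share over 55% as a term and highest without replicate 3), and Del/+ against Dup/+ gave -0.29 ± 0.10 (adjusted p = 0.210).

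*Tsc22d3* (ENSRNOG00000056135) encodes the glucocorticoid-induced leucine zipper, which mediates part of the anti-inflammatory action of the hormone. Its means were 65.5 ± 6.46 CPM in wt (SD, n = 6), 68.3 ± 3.78 in Del/+ (n = 4), 66.6 ± 6.21 in Dup/+ (n = 5) and 68.8 ± 8.28 in Del/Dup (n = 4). All groups overlapped, and over the 19 libraries the level ran from 57.8 CPM in Dup/+ replicate 5 to 77.7 in Del/Dup replicate 4, the narrowest relative span of the 9 genes (1.34-fold).

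*Zbtb16* (ENSRNOG00000029980), a zinc finger transcription factor induced by glucocorticoids in many tissues, had means of 44.8 to 46.8 CPM in the 4 groups. Its log2 fold changes in the 4 comparisons lay between -0.03 and 0.04, each smaller than its SE. *Errfi1* (ENSRNOG00000058186), an inhibitor of epidermal growth factor receptor signalling, had means of 39.9 ± 3.81 CPM in wt, 36.1 ± 3.01 in Del/+, 39.8 ± 4.95 in Dup/+ and 38.4 ± 2.23 in Del/Dup (SD, n = 6, 4, 5 and 4), with overlapping ranges throughout. *Plin4* (ENSRNOG00000047046), a coat protein of lipid droplets, was read at 53 to 130 counts and had means of 3.07 to 3.56 CPM.

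*Pdk4* (ENSRNOG00000009565), a mitochondrial kinase that turns fuel use from glucose towards fatty acids, was read at 52 to 105 counts per library. It stood at 2.15, 2.53 and 3.22 CPM in wt (lowest, median and highest), at 2.32, 2.46, 2.63 and 2.79 in Del/+, at 2.89, 2.87, 4.60, 3.66 and 3.32 in Dup/+, and at 3.83, 2.72, 2.65 and 3.17 in Del/Dup. Every Dup/+ library thus lay above every Del/+ library, by a smallest gap of 2.87 against 2.79 CPM. The log2 fold change was 0.41 ± 0.14 for Dup/+ against wt (SE, adjusted p = 0.340) and -0.42 ± 0.15 for Del/+ against Dup/+ (adjusted p = 0.224). The summed red cell markers also lay higher in Dup/+ (182 to 246 CPM) than in wt (118 to 162), with no overlap. Within groups, these markers had r = 0.0045 with *Pdk4* (permutation p = 0.985, adjusted p = 0.985 over 72 relations) and r = -0.488 with *Sgk1* (permutation p = 0.0456, adjusted p = 0.547) over the 19 libraries. By rank they had rho = -0.018 with *Pdk4* (permutation p = 0.947) and -0.356 with *Sgk1* (permutation p = 0.175).

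*Cdkn1a* (ENSRNOG00000000521) encodes the cell cycle inhibitor p21, a target of p53 as well as of the glucocorticoid receptor, and was read at 54 to 163 counts. It stood at 1.95, 2.41 and 3.01 CPM in wt (lowest, median and highest). The Del/+ libraries held 3.77, 3.16, 4.29 and 3.47 CPM, all above wt, the Dup/+ libraries 2.52, 3.36, 3.76, 2.96 and 2.61, and the Del/Dup libraries 6.78, 2.83, 3.97 and 2.94. The log2 fold change was 0.56 ± 0.20 in Del/+ against wt (SE, a fold of 1.47, edgeR adjusted p = 0.139), and without Del/Dup replicate 2 it was 0.56 (adjusted p = 0.0484). In Del/Dup it was 0.72 ± 0.20 (adjusted p = 0.144 in edgeR, 0.0445 in DESeq2), and 0.39 (adjusted p = 0.556) without replicate 2. It was called at 0.86 (edgeR adjusted p = 0.0434) without Del/Dup replicate 3, so the call rested on single libraries. With *Ttr*, the leading choroid plexus marker, as a covariate the log2 fold changes were 0.44 in Del/+ and 0.49 in Del/Dup.

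**Figure D2:**
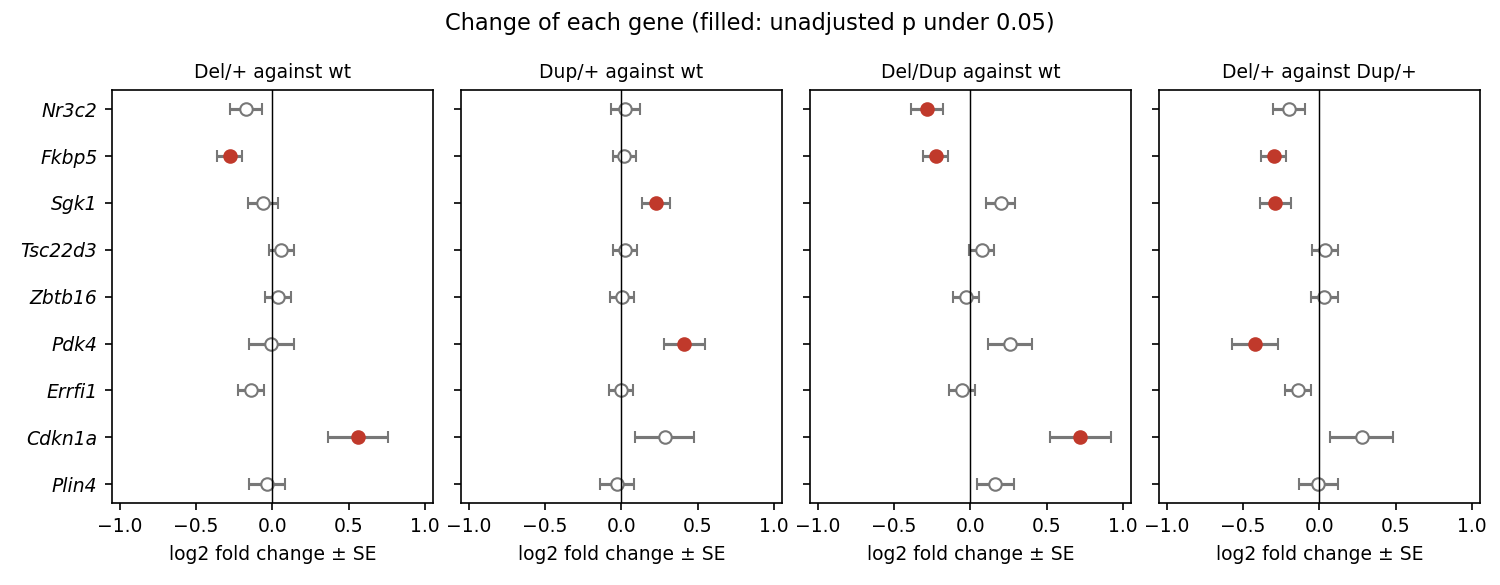
Log2 fold change with its SE (edgeR, all 19 libraries in 1 fit) of each of the 9 genes in 4 comparisons, with filled points for an unadjusted p under 0.05. The 10 filled points include *Fkbp5* in 3 comparisons and *Cdkn1a* in 2, and none had an adjusted p under 0.05.

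Partners of the receptors and further target genes were then examined for the same comparisons. Of 12 listed partners (chaperones, the enzymes that convert corticosterone, and coregulators), 11 were tested, *Hsd11b2* being too low, and 0 were called in any comparison by edgeR or DESeq2. At an unadjusted p under 0.05 there were 0 in Del/+, 1 in Dup/+ and 2 in Del/Dup against wt, 1 in Del/+ against Dup/+ and 2 in the test of any difference, where all genes gave 18.4%, 8.94%, 16.2%, 13.5% and 18.9%. *Hsd11b1*, which regenerates active corticosterone within cells, differed by 0.14 ± 0.06 in Dup/+ against wt on the log2 scale (SE, adjusted p = 0.494) and by -0.19 ± 0.07 in Del/+ against Dup/+ (adjusted p = 0.210). *Hsp90ab1*, a chaperone that holds the receptors ready to bind hormone, differed by -0.12 ± 0.04 in Del/Dup (adjusted p = 0.206), and the coactivator *Ncoa1* by -0.11 ± 0.06 in Del/+ (edgeR adjusted p = 0.330), so each of these missed the threshold.

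Of 20 further targets, all were tested. By edgeR, 0 were called in Del/+, in Dup/+ or in Del/Dup against wt, with 4, 3 and 6 at an unadjusted p under 0.05 and 1, 0 and 1 called by DESeq2. All genes gave 18.4%, 8.94% and 16.2% at an unadjusted p under 0.05 and 4.15%, 0.518% and 1.19% called by DESeq2. In Del/+ against Dup/+ 1 was called, *Ddit4* (0.784% of all genes), and DESeq2 called the same gene (1.84% of all genes). There 5 had an unadjusted p under 0.05, all lower in Del/+, as 6.93% of all genes were. In the test of any difference edgeR called 1 of the 20, again *Ddit4* (adjusted p = 0.0377), with 5 at an unadjusted p under 0.05, and DESeq2 called 2, *Ddit4* and *Nfkbia*, beside 0.823%, 18.9% and 4.79% of all genes. *Ddit4* encodes an inhibitor of mTORC1 signalling induced by glucocorticoids and by other stresses. It stood at 14.7 to 17.3 CPM in Del/+ and at 20.4, 20.8, 21.0, 22.2 and 17.0 in Dup/+, beside 17.4 to 21.9 in wt and 18.9 to 22.6 in Del/Dup. All Del/+ libraries lay below wt, and 4 of 5 Dup/+ libraries lay above all Del/+ libraries. *Ddit4* fell by 0.38 on the log2 scale in Del/+ against Dup/+ (SE 0.08, a fold of 0.768, edgeR adjusted p = 0.0309). Over all alternatives this log2 fold change lay between -0.44 and -0.35. Its adjusted p in Del/+ against Dup/+ was 0.213 with a multi-mapped share over 55% as a term (-0.43), 0.0566 with only these 2 groups in the fit (-0.38), and 0.0611 to 0.114 without any one of 7 of the 9 libraries compared (Del/+ replicate 1, 2 or 4, or Dup/+ replicate 1, 2, 3 or 4). Against wt the log2 fold change of *Ddit4* in Del/+ was -0.27 ± 0.08 (edgeR adjusted p = 0.0907), which DESeq2 called. *Nfkbia*, which encodes the inhibitor that holds NF-kB in the cytoplasm, was at 24.1 to 29.5 CPM in Del/Dup and 16.8 to 22.7 in wt, with no overlap and a log2 fold change of 0.43 ± 0.12 (SE, edgeR adjusted p = 0.144), and it was the target called by DESeq2 there.

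The second question was whether the genes varied together from animal to animal. For each gene the log2 CPM of a library was taken as its deviation from the mean of its group, and Pearson's r and Spearman's rho were computed over the 19 libraries for all 36 pairs of the 9 genes, with two-sided p-values from 100000 permutations of libraries within groups and adjustment over the 36 pairs. The median r was 0.06, 20 pairs were positive, 5 had an unadjusted p under 0.05, and 2 pairs were called.

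**Figure D3:**
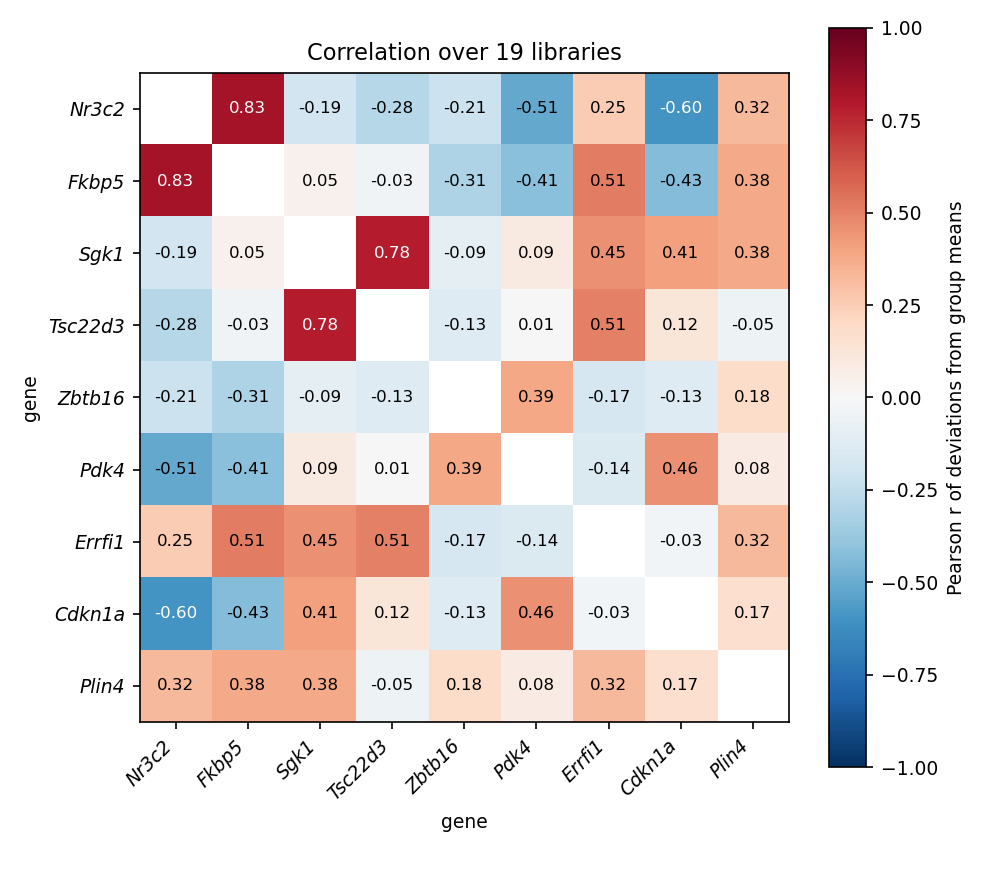
Pearson r of the deviations from group means, in log2 CPM over 19 libraries, for each pair of the 9 genes (red for positive, blue for negative). *Nr3c2* with *Fkbp5* (0.83) and *Sgk1* with *Tsc22d3* (0.78) stand apart from the other 34 pairs, which lie between -0.60 and 0.51.

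*Sgk1* and *Tsc22d3* were correlated within groups (r = 0.782, permutation p = 0.00061, adjusted p = 0.0110, rho = 0.700, permutation p = 0.00228, adjusted p = 0.0410). Both were low in Dup/+ replicate 5 (79.4 and 57.8 CPM) and Del/Dup replicate 3 (83.4 and 58.1 CPM), the libraries farthest from the median, and both high in wt replicate 6 (102 and 73.9 CPM). Without the former 2 libraries r was 0.653. It was 0.790 over the 12 libraries with a low multi-mapped share and 0.767 over the 7 with a high one. The adjusted p was 0.0536, 0.0565 and 0.0551 without Dup/+ replicate 1, Dup/+ replicate 5 or Del/Dup replicate 3, and 0.0612 (r = 0.613) with no group means removed. By r, but not by rho, both genes also varied with the red cell markers at an unadjusted p under 0.05, and *Sgk1* with the endothelial markers. The summed red cell markers had r = -0.488 with *Sgk1* and -0.449 with *Tsc22d3* (permutation p = 0.0456 and 0.0429, adjusted p = 0.547 for both over the 72 relations of the 9 genes to 8 library measures). By rank they had rho = -0.356 and -0.358 (permutation p = 0.175 and 0.138, adjusted p = 0.836 and 0.826). The summed endothelial markers (3 of 6 listed were tested, and *Cldn5* was at 0) had r = 0.485 with *Sgk1* and 0.381 with *Tsc22d3* (permutation p = 0.0393 and 0.166, adjusted p = 0.547 and 0.728). By rank they had rho = 0.425 and 0.393 (permutation p = 0.0839 and 0.136, adjusted p = 0.826 for both). With the red cell sum taken out of the deviations, the pair had r = 0.722 and missed the threshold (adjusted p = 0.0536). By rank the pair was still called there (rho = 0.719, adjusted p = 0.0450). With the endothelial sum taken out the pair had r = 0.739 (adjusted p = 0.00072).

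Among all genes tested, *Tsc22d3* was the third most like *Sgk1*, and *Sgk1* the fourth most like *Tsc22d3*. The genes most like *Sgk1* were *Nfkbia* (r = 0.851) and *Ddit4* (r = 0.83), both on the list of further target genes. Of the 20 further targets, 6 had an r with *Sgk1* above 0.425, and 5 had an r with *Tsc22d3* above 0.455, the values that 5% of all genes exceed. Besides *Nfkbia* and *Ddit4*, those exceeding it for both were *Klf15*, *Angptl4* and *Mt1*, respectively a transcription factor of metabolism, a lipase inhibitor and a metallothionein. *Mt1* was read at only 3 to 21 counts per library, so its r is imprecise. For the remaining members 0 to 3 of the 20 lay above that value (*Errfi1* 3, *Cdkn1a* 2, *Nr3c2* and *Zbtb16* 1, *Pdk4* and *Plin4* 0), and 3 lay below the value that 95% of genes exceed for *Nr3c2*, 2 for *Cdkn1a* and 1 for *Errfi1*. With *Fkbp5*, 0 of the 20 exceeded the value that 5% of genes exceed (0.617). Of the 11 receptor partners tested, 0 exceeded that value for *Sgk1* or for *Tsc22d3*. For these 2 genes, 2 and 3 partners lay below the value that 95% of genes exceed. With *Fkbp5* the partners numbered 2 above and 0 below. *Fkbp5*, a widely used glucocorticoid target, had an r of 0.05 with *Sgk1* (permutation p = 0.855) and of -0.03 with *Tsc22d3* (permutation p = 0.913).

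RefSeq windows of 300 bases around the transcription start (250 before, 50 after, assembly GRCr8) were available for 7 of the 9 genes, 15 windows in all. They were searched on both strands for the hexamer to which one receptor molecule binds, AGAACA or its reverse complement TGTTCT, and for the TATA motif TATAAA or TTTATA, motifs that do not overlap each other here. The hexamer was in 1 of the 15 windows, one of *Plin4*, 139 bases before the start, where 20.7% of all 33469 windows held one, and 0 held both hexamers 3 bases apart, as 0.0149% of all windows did. Windows 1 to 4 of *Plin4* overlap almost wholly, so the 15 windows are not all distinct. The TATA motif was in 4 windows, 2 of *Sgk1*, 1 of *Tsc22d3* and 1 of *Errfi1*, beside 14.2% of all windows. The windows of the covarying pair that hold it are shown to place the motif (in capitals), 55 and 33 bases before the start in *Sgk1* and 44 in *Tsc22d3*. They lie at chr1:24807182-24807481 and chr1:24804782-24805081 for *Sgk1* and chrX:109009985-109010284 for *Tsc22d3*, all on the minus strand, and are written from 5′ to 3′.
Sgk1 window 1: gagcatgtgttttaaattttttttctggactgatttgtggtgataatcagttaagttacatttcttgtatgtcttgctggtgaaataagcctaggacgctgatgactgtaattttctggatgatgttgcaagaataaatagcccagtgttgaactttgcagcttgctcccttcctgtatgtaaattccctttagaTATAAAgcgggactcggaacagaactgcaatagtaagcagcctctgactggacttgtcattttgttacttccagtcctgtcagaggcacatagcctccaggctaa
Sgk1 window 3: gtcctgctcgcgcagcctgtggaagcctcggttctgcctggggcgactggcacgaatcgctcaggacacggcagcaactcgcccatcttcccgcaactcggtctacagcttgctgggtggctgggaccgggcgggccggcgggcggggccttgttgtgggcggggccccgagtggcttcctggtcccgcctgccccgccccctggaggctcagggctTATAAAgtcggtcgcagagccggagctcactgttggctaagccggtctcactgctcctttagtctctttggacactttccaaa
Tsc22d3 window 3: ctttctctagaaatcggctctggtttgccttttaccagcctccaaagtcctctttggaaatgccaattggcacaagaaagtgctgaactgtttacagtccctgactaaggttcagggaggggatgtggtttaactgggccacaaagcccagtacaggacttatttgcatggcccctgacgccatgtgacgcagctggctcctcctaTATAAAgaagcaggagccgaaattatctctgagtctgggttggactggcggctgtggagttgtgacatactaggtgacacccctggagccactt
Which of these starts the reads came from is not given by counts per gene, and receptor binding far from the start is outside these windows.

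*Nr3c2* and *Fkbp5* formed the other pair (r = 0.83, permutation p = 0.00021, adjusted p = 0.00756, rho = 0.846, permutation p = 0.00012, adjusted p = 0.00432). Both were lowest in Del/Dup replicate 2, at 105 and 51.2 CPM. Without that library r was 0.729 (adjusted p = 0.0227), and without it and Del/Dup replicate 3, the libraries farthest from the median, it was 0.737. Within the libraries of low multi-mapped share r was 0.672 (n = 12), and within those of high share 0.973 (n = 7). The pair remained called without any one library.

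This pair varied with the hippocampal neuron markers. The summed markers correlated with *Nr3c2* (r = 0.768, permutation p = 0.00022, rho = 0.830) and with *Fkbp5* (r = 0.773, permutation p = 0.00114, rho = 0.758), with adjusted p = 0.0158 and 0.0410 over the 72 relations of the 9 genes to 8 library measures, and no other relation of the 72 was called. By rho the adjusted p was 0.0194 for *Nr3c2* and 0.0626 for *Fkbp5*, so the second missed the threshold by rank. The astrocyte marker sum had r = 0.650 with *Nr3c2* (permutation p = 0.0102, adjusted p = 0.244) and r = 0.343 with *Fkbp5* (permutation p = 0.201, adjusted p = 0.760). By rank it had rho = 0.670 (permutation p = 0.0115, adjusted p = 0.276) and 0.428 (permutation p = 0.103, adjusted p = 0.826). With the astrocyte sum taken out the pair had r = 0.849 (adjusted p = 0.00504). For the hippocampal marker sum, leaving out the 2 libraries farthest from its median gave r = 0.776 with *Nr3c2* and 0.704 with *Fkbp5*. With the hippocampal marker sum taken out of the deviations, *Nr3c2* and *Fkbp5* had r = 0.579 (adjusted p = 0.173), while *Sgk1* and *Tsc22d3* had r = 0.774 (adjusted p = 0.00936) and *Fkbp5* and *Errfi1* had r = 0.794 (adjusted p = 0.00936). On the same values *Fkbp5* had r = 0.362 with *Sgk1* (permutation p = 0.156, adjusted p = 0.329) and r = 0.470 with *Tsc22d3* (permutation p = 0.0717, adjusted p = 0.311). By rank these pairs had rho = 0.489 (permutation p = 0.0533) and 0.504 (permutation p = 0.0471), with an adjusted p = 0.213 for both. These values lay above those before the marker sum was taken out, and neither pair was called. With the marker sum as a covariate in the test between groups, *Fkbp5* was, besides the value in Del/+ against wt given above, at -0.11 in Del/Dup against wt (edgeR adjusted p = 0.606) and at -0.27 in Del/+ against Dup/+ (adjusted p = 0.0345). The same covariate gave -0.13 for *Nr3c2* in Del/Dup against wt (adjusted p = 0.602). In whole tissue, fewer cells of a type and less RNA per cell cannot be told apart.

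**Figure D4:**
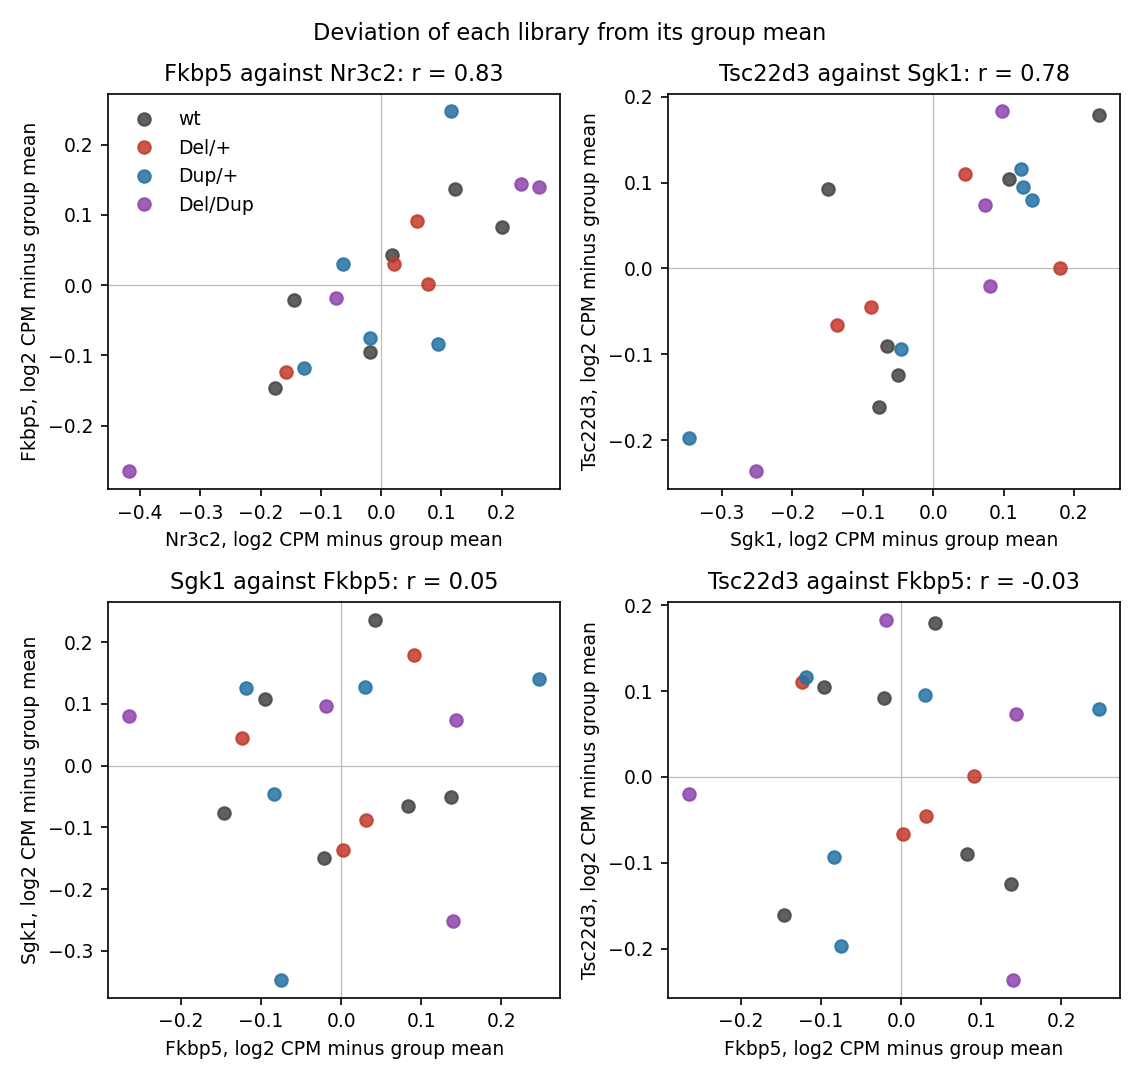
Deviation of each library from its group mean (log2 CPM, both axes) for *Fkbp5* against *Nr3c2*, *Tsc22d3* against *Sgk1*, and *Sgk1* and *Tsc22d3* against *Fkbp5*, colored by group. The upper panels rise together (r = 0.83 and 0.78), with Del/Dup replicate 2 at the lower left of the first, whereas the lower panels have r = 0.05 and -0.03.

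By likeness over the 19 libraries, the genes nearest to *Nr3c2* were *Map4* (r = 0.980), *Gria1* (0.971) and *Ppm1e* (0.945), and 5% of all genes had an r above 0.668 with it, the highest such value of the 9 genes. *Fkbp5* was 154th in that order of 15439 genes. The genes nearest to *Fkbp5* were *Gpc1* (0.918), *Cotl1* (0.890) and *Dagla* (0.889), with *Nr3c2* 55th. For *Cdkn1a* they were *Numb* (0.861), *Itpripl1* (0.837) and *Adamts8* (0.798), and for *Tsc22d3* the small RNA loci RF00553 (0.825) and RF00004 (0.812) and *Mrpl49* (0.800). *Zbtb16* was nearest to *Kmt2e* (0.888), *Rasip1* (0.845) and *Pde4d* (0.840), and *Errfi1* to *Ghr* (0.848), *Agtrap* (0.833) and *Tacr1* (0.819). *Pdk4* was nearest to *Tmem74b* (0.809), *Efcc1* (0.789) and *Polg* (0.762), and *Plin4* to *Pikfyve* (0.879), *Vcan* (0.835) and *Ano1* (0.831). These values describe the libraries, which share depth, dissection and composition.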

How the data were processed

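Hippocampal RNA of 19 rats was sequenced by the authors as short single-end reads from stranded libraries, aligned with HISAT2 to rn6 with Ensembl gene models and counted with HTSeq. The deposited values are raw counts per gene, 1 library per table. The label protocol describes removal of rRNA, another label field names polyA RNA, and the strand setting of the counting is not given in the sources used here. The 5 summary lines of each table (such as reads in no gene, 6.94% to 16.1% of all reads tallied) were left out.

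Groups came from the description field. After filterByExpr and TMM scaling, genes were tested by quasi-likelihood in edgeR 4.0.16 (R 4.3.3), the 19 libraries and 4 group means in a single model, prior count 2, with Benjamini-Hochberg adjustment over all 15440 genes at 0.05. P-values measure the spread between animals of these groups. Levels are CPM on the TMM-scaled library size. Replicates of a group differed by a chi-square of 3.51 to 59.2 per degree of freedom over 37 pairs, so none was a duplicate. DESeq2 1.42.0, other scalings, no filter, covariates and leaving out each library were alternatives. The scripts were tested on simulated data. Correlations were computed with numpy 2.4.6 under Python 3.11.15.

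The 10 genes, the lists of partners, further targets and markers, and the tests were chosen with earlier results of these data known. Members are all described; partners and further targets were named by value when called or when they had the smallest adjusted p of their list, and for each member the 3 genes most like it; other genes were named after their values were seen. *Nr3c1* was not analysed here, so the planned ratio of the 2 receptors was not computed.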

Additional observations from a re-analysis of the deposited data

Results flagged for a closer look

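Among the 36 sets of values formed by the 9 genes and 4 groups, 1 held a library far from the rest of its group. *Sgk1* stood at 83.4 CPM in Del/Dup replicate 3, whereas the other 3 Del/Dup libraries lay between 105 and 106 CPM, and the gap took 0.926 of the range of the group. This passes Dixon's critical value for sets of 4, which chance alone passes in about 1 of 20 sets, so 1 of 36 is no more than chance gives. The same library was also the lowest of its group for *Tsc22d3*, at 58.1 CPM.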

How the results depend on the processing

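The count of genes called was 0 in every comparison by edgeR, and DESeq2 called 1 in Del/+ against wt, 1 in Del/Dup against wt, 1 in Del/+ against Dup/+ and 2 in the test of any group. Leaving out each library in turn gave 0 to 2 in Del/+ against wt (2, *Fkbp5* and *Cdkn1a*, without Del/Dup replicate 2), 0 to 1 in Del/Dup against wt (1, *Cdkn1a*, without Del/Dup replicate 3) and 0 in the others. The summed hippocampal markers as a covariate, added after the data were seen, gave 1 in Del/+ against Dup/+ (*Fkbp5*, adjusted p = 0.0345). By r, the covarying pairs numbered 1 to 2 without one library and 2 to 3 otherwise, except 1 with the red cell marker sum taken out (*Sgk1* and *Tsc22d3* lost by r, though not by rho). That alternative was added after the data were seen, as were the astrocyte, endothelial and hippocampal sums. No value of the 10 with an unadjusted p under 0.05 changed sign in any alternative, whereas 13 of the other 26 did, and none of those 26 was called. The cause of these changes was not tested.

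With the replicate number as a block (replicate block), 0 of the 9 genes were called in each comparison, and 72, 31, 7, 88 and 76 of all genes in Del/+, Dup/+ and Del/Dup against wt, Del/+ against Dup/+ and any group, beside 119, 42, 14, 121 and 127 without it. Libraries of the same number had correlated deviations of -0.17 to 0.12, so the numbers do not pair the animals. Over all alternatives the counts of all genes called ran from 46 to 591, 12 to 80, 2 to 216, 51 to 256 and 61 to 710. The ratio of *Nr3c2* to *Nr3c1* was not run. Groups of 4 to 6 animals and counts of 52 to 163 for *Pdk4* and *Cdkn1a* limit the precision.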

Other observations

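One receptor partner, *Hsp90aa1*, a chaperone of the receptors, was read in an all-or-nothing manner. It had 259 to 753 counts in 9 libraries and 0 to 2 counts in the other 10, with both kinds in every group (3 of 6 wt, 3 of 4 Del/+, 1 of 5 Dup/+ and 2 of 4 Del/Dup libraries at the higher level). Near-identical copies of this gene exist in mammals, and reads aligned to more than 1 place were not counted, so its level is uncertain. This row was chosen after its values were seen.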
